A study of Mus musculus with 16 samples.

Results

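The choroid plexus is a fringe of secretory epithelium that hangs into the ventricles of the brain, and 10 of its genes, Ttr, Kl, Folr1, Aqp1, Kcne2, Clic6, Otx2, Sostdc1, Prlr and Slc4a5, were followed on every array of a cuprizone (CPZ) experiment on the mouse corpus callosum. The 10 genes were picked as a marker set of choroid plexus tissue taken along in dissection. They were chosen by how their levels varied between the 16 arrays, so the spread described here is the one that selected them and was not tested. They are 10 of 18737 named genes on the array and are represented by 15 probes. The label fits the known role of these genes, but a probe gives only the brightness of 1 transcript and not the cell that made it.

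RNA came from male C57BL/6 mice that entered the experiment at 7 to 8 weeks of age, so that age at sampling differed with the length of the diet. RNA was measured in 4 groups on 16 single-colour Agilent 4x44K arrays. The untreated group (n = 3) was kept on normal diet and was age-matched to the mice fed CPZ for 4 weeks. The other groups were fed powdered chow with CPZ, a copper chelator that kills oligodendrocytes, for 2 weeks (n = 3) or 4 weeks (n = 4), or for 4 weeks followed by regular diet (n = 6). The labels give 0.2 to 0.4% CPZ in the chow. Regular diet lasted 2 days or 2 weeks, and both durations share the label of the 6 arrays. The corpus callosum was cut by hand under a stereomicroscope from frozen coronal sections of 200 µm. Each condition used 3 to 6 mice, and arrays were counted as replicates by their numbers in the labels, which name no animals.

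The corpus callosum forms the roof of the lateral ventricles, and the choroid plexus lies free within them. Its epithelial cells secrete cerebrospinal fluid (CSF) by moving sodium, chloride, bicarbonate and water from blood to ventricle. They also make carriers for hormones and vitamins. In a bulk sample, fewer cells of a type and less RNA per cell cannot be told apart.

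Values are log2 levels of a probe relative to the 75th percentile of its array and then to the median of the 3 untreated arrays, so that 0 is the untreated median and 1 is a doubling. Levels of different probes are not compared as results, only their differences between arrays, and signal served only to choose which probes and list members are named. Where a gene had several probes, the brightest stood for it. The share of all probes well above background was 57.3 to 72.2% per array and stood in for depth. The scanner files were recorded under another sample than the matching column of the processed table for 14 of the 16 arrays, and for 13 of them under another group. The columns of the processed table gave the groups, and values under the other assignment are given where they matter.

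The carrier of thyroxine and retinol-binding protein in CSF, transthyretin (Ttr), had the widest range among the 7 genes well above background on all 16 arrays. Its level was 1.32, -2.45 and 0.00 on the untreated arrays and 0.88, -1.33 and 0.02 after 2 weeks of CPZ. It was -2.83, 1.65, 3.51 and 0.49 after 4 weeks of CPZ, and on regular diet it ran from -3.59 to 3.03 with a median of -0.84. All 4 groups overlapped, and the regular diet group alone covered 6.63 of the log2 scale. From regular diet array 1 to array 3 of the 4-week group, the level differed by 7.11 on the log2 scale, a 138-fold difference, with Ttr well above background on both.

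Klotho (Kl) is a co-receptor for FGF23 that is also shed into CSF, and Folr1 is the folate receptor that carries folate across the plexus. The Kl level was 1.70, -0.91 and 0.00 on the untreated arrays, 1.40, -0.77 and 0.23 after 2 weeks and -0.92, 2.02, 3.53 and 0.98 after 4 weeks. On regular diet it ran from -2.39 to 3.02 with a median of -0.05. The same arrays stood at the ends as for Ttr, with a 60.6-fold difference between them. Folr1 levels differed 27.6-fold between the same 2 arrays, from -1.43 on regular diet array 1 to 3.36 on array 3 of the 4-week group. Its second, dimmer probe had a range of at least 8.63-fold, and its values followed the brighter one with r = 0.941 over the 16 arrays.

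Aqp1, the water channel of the ventricle-facing membrane, was -2.91 on untreated array 2 and 3.90 on array 3 of the 4-week group. Its levels were 1.37, -2.91 and 0.00 untreated, 1.12, -1.04 and 0.00 after 2 weeks, and -2.87, 2.06, 3.90 and 0.78 after 4 weeks. On regular diet the lowest, median and highest levels were -2.37, -0.62 and 3.52. The probe was not well above background on untreated array 2 and array 1 of the 4-week group, so the difference was at least 101-fold.

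Kcne2, a beta subunit of potassium channels in the plexus epithelium, was -3.26 on array 1 of the 4-week group and 3.67 on regular diet array 4. This 121-fold difference was measured well above background on all 16 arrays. Its untreated levels were 1.04, -2.23 and 0.00, those after 2 weeks were 1.40, -1.24 and -0.18, and those after 4 weeks were -3.26, 1.61, 3.20 and 0.30. Regular diet gave a median of -0.62. Clic6, of the intracellular chloride channel family, had its lowest level (-3.03) on array 1 of the 4-week group and its highest (3.07) on array 3 of the same group, a 68.7-fold difference between arrays of the same diet and time. Slc4a5, a sodium bicarbonate cotransporter of the ventricle-facing membrane, ran from -1.35 on untreated array 2 to 3.16 on regular diet array 4, at least 18.1-fold. It was not well above background on 4 arrays, and its second probe was well above background only on regular diet array 4.

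Otx2, the homeobox factor needed to form and keep the choroid plexus, had r = 0.902 with the mean of the other 9 genes. Prlr had 0.899 and the other 8 members from 0.945 to 0.99. The Otx2 level was 0.87, 0.00 and -0.01 untreated, 2.94, -1.42 and -0.06 after 2 weeks, and -3.02, 1.43, 2.92 and 0.45 after 4 weeks. On regular diet it ran from -2.35 to 2.83 with a median of 0.52. Otx2 was the only 1 of the 10 genes with its highest level on array 1 of the 2-week group, where it lay 1.63 above its line on the mean of the other 9 genes. It also lay 1.33 above that line on untreated array 2 and 1.28 above it on regular diet array 6. It was not well above background on 4 arrays, and its range was at least 12.9-fold.

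Sostdc1, a secreted antagonist of BMP and Wnt signals, ran from -2.49 on regular diet array 1 to 2.95 on regular diet array 4. This 43.5-fold difference lay within the regular diet group alone, and array 3 of the 4-week group was close behind at 2.94. The brightest probe of Prlr, the prolactin receptor, ran only from -0.61 to 1.24, a 3.6-fold difference. The other 2 Prlr probes were well above background on only 10 and 9 arrays, and their ranges were at least 10.7-fold and 13.5-fold. They had r of 0.903 and 0.934 with the brightest probe over the 16 arrays, of which 6 and 7 hold values not well above background.

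**Figure D1:**
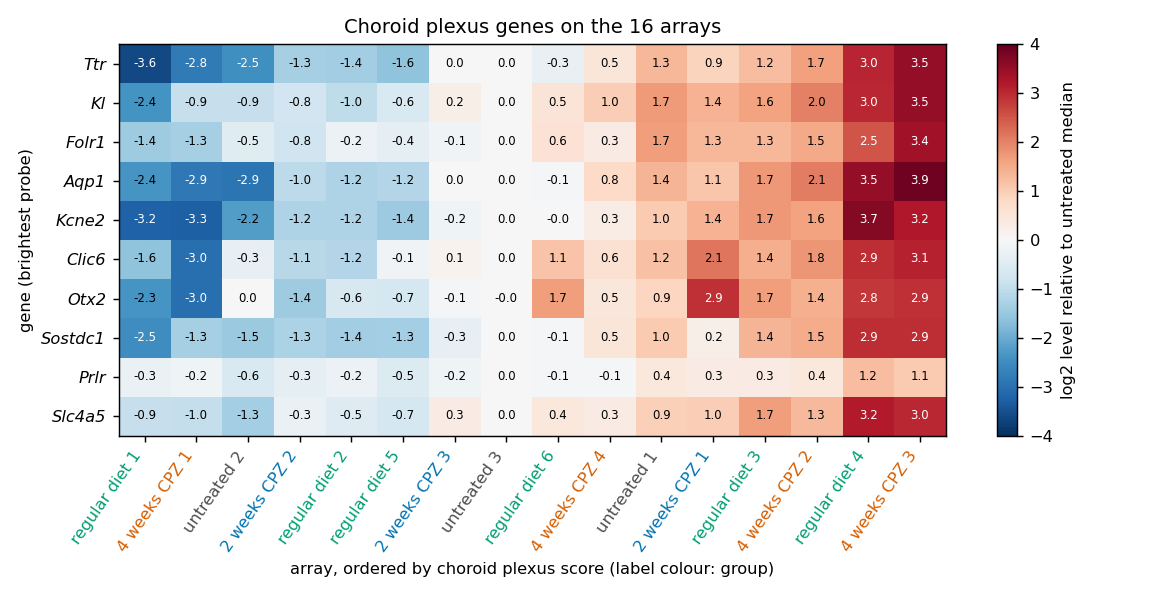
Log2 level relative to the untreated median (colour, and the number in each cell) of the brightest probe of each of the 10 genes (rows) on the 16 arrays (columns, ordered by the mean of the 10 genes, label colour giving the group). Values change together down each column, from -3.6 for Ttr on regular diet array 1 to 3.9 for Aqp1 on array 3 of the 4-week group, and arrays of all 4 groups are mixed along the order.

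The highest arrays were nearly the same for every gene, and the others changed rank more. Array 3 of the 4-week group was among the 2 highest for all 10 genes, and regular diet array 4 for 9 of the 10, the exception being Otx2. Array 1 of the 2-week group ranked from 1 to 7 among the 16 arrays over the 10 genes, and untreated array 2 from 9 to 16. At the low end, regular diet array 1 was among the 3 lowest for 9 genes and array 1 of the 4-week group for 8. The 45 pairs of genes correlated across the 16 arrays with Pearson r from 0.746 (Otx2 and Prlr) to 0.988 (Kcne2 and Ttr), with a median of 0.945. Spearman rho ran from 0.785 to 0.982. These are descriptions of genes chosen to vary, measured on shared arrays with shared scaling. With the 2 highest arrays left out, the range was 0.631 to 0.985 over 14 arrays. With each group's mean removed, it was 0.774 to 0.995.

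The probes moved by different amounts. Set against the mean of the other 9 genes, the brightest probe of Kcne2 changed by 1.35, that of Aqp1 by 1.34 and that of Ttr by 1.32 for each unit of log2. The slopes of Otx2, Clic6, Kl and Sostdc1 lay between 0.992 and 1.05, those of Folr1 and Slc4a5 were 0.838 and 0.81, and that of the brightest Prlr probe was 0.279. These slopes belong to single probes, since other probes of Prlr and Folr1 had ranges unlike that of the brightest. Those of Aqp1, Otx2 and Slc4a5 include 2, 4 and 4 arrays on which the probe was not well above background. Beside the departures of Otx2, Clic6 lay at -1.34 from its line on array 1 of the 4-week group. Aqp1 lay at -1.26 on untreated array 2, where its probe was not well above background.

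Windows of 250 bases upstream of a transcription start were taken from RefSeq (GRCm38.p6) for 6 of the 10 genes, which gave 12 windows. Windows of Ttr, Folr1, Clic6 and Sostdc1 were not used here. The 3 members with a single start, and the Otx2 start with a match, are printed to show what sequence lies before genes that varied together. The motif searched was TAATCC on either strand (GGATTA on the other), which OTX factors are known to bind, and a match is in capitals. It was found in 1 of the 12 windows, against 6.25% of 32851 windows of all genes. The match, upstream of 1 of 4 Otx2 starts, is a description and not a site. The GC content of the 4 windows is 66.8% for Kl, 62.0% for Aqp1, 62.8% for Slc4a5 and 48.4% for Otx2, against a median of 52.4% over all windows.
Kl, chr5:150952357-150952606, plus strand: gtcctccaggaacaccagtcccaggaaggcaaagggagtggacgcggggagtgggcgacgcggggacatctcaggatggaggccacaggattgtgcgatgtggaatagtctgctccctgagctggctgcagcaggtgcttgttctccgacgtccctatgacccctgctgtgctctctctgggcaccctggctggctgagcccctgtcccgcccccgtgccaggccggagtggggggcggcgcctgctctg
Aqp1, chr6:55336049-55336298, plus strand: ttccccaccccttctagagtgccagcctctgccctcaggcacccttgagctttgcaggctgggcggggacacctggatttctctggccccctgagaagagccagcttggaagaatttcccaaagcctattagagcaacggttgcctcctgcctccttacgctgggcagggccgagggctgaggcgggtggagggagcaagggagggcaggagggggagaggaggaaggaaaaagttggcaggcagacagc
Slc4a5, chr6:83237125-83237374, plus strand: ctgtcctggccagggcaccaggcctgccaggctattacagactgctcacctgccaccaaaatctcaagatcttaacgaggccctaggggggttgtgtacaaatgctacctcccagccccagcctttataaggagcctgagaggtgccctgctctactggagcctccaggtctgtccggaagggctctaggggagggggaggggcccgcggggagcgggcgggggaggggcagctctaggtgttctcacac
Otx2, chr14:48665110-48665359, minus strand: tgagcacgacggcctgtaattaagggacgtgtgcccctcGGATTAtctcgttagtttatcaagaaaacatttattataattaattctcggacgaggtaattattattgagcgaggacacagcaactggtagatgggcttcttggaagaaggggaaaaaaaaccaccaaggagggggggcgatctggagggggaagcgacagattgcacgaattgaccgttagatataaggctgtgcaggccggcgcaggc

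The mean log2 level of the 10 genes on an array, called the choroid plexus score here, put the arrays on 1 scale. It was 1.16, -1.28 and 0.00 on the untreated arrays and 1.27, -0.96 and -0.02 after 2 weeks of CPZ. It was -1.97, 1.53, 3.05 and 0.47 after 4 weeks and, on regular diet, -2.07, -0.91, 1.41, 2.89, -0.87 and 0.38. The score thus ran over 5.12 on the log2 scale from regular diet array 1 to array 3 of the 4-week group. Between 1 and 3 of the 10 genes were not well above background on 5 of the arrays with a score below 0, so the range was at least 32.3-fold. Over the 7 genes well above background on all 16 arrays, an alternative added after the data were seen, it was 34.2-fold between the same 2 arrays. It took both signs in every group. On 6 arrays all 10 genes were above the untreated median, and on 5 arrays all 10 were below it.

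The group means ± SD were -0.04 ± 1.22 untreated (n = 3), 0.10 ± 1.12 after 2 weeks (n = 3), 0.77 ± 2.11 after 4 weeks (n = 4) and 0.14 ± 1.80 on regular diet (n = 6). The distance between the lowest and highest array was at least 28.7-fold within the 4-week group, 28.9-fold on regular diet, 5.23-fold untreated and 4.56-fold after 2 weeks. Groups held 4.02% of the score's variance, and the 4 slides, each of 4 arrays, held 38.0%. Over the 10 genes the medians were 6.00% between groups and 35.9% between slides, and over 27779 probes tested they were 29.2% and 19.9%. The regular diet group pools 2 days and 2 weeks of regular diet, which the labels do not separate. The part of this difference in the group's spread and in the shares between groups was not tested. On slide 1 the untreated array had a score of 1.16 and the regular diet array 2.89, and on slide 3 the untreated array had 0.00 and the regular diet arrays -2.07 and -0.87. On slide 2 the 4-week array stood at 3.05 against -1.28 untreated, and on slide 3 at -1.97 against 0.00, so the direction differed between slides.

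The place of the groups on this scale depended on which sample each array belongs to. With the scanner files under the samples they were recorded for, groups held 46.8% of the score's variance, and the range over all arrays was 5.09. The group means ± SD were then -0.13 ± 0.71 untreated, 1.18 ± 1.5 after 2 weeks, -1.69 ± 0.54 after 4 weeks and -1.18 ± 1.6 on regular diet. The arrays of a group spanned 1.28, 2.69, 1.26 and 3.55 on the log2 scale in that order. The spread over all 16 arrays and the common movement of the genes do not depend on this assignment, whereas every statement on a group does. The number that ends the name of each matched scanner array equalled its column number for 16 of the 16 arrays. Which assignment holds was not tested.

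**Figure D2:**
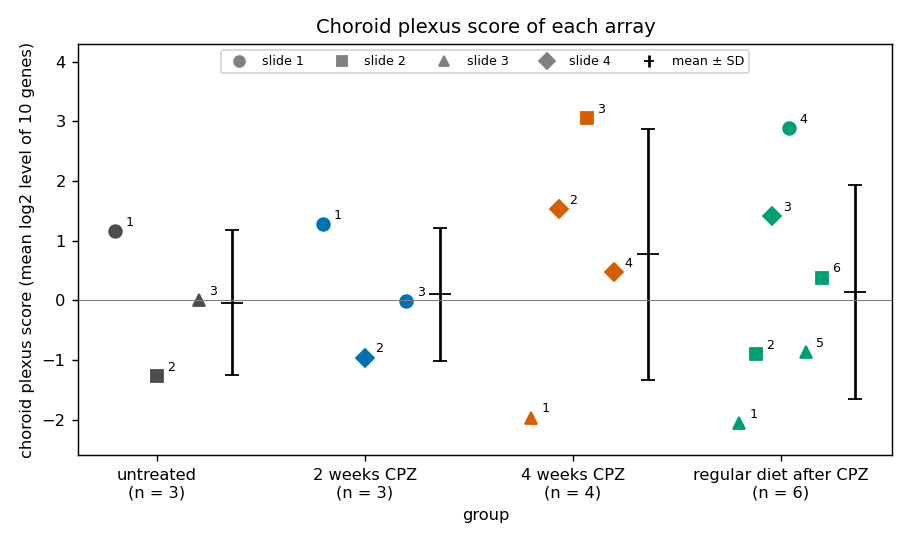
Choroid plexus score (mean log2 level of the 10 genes relative to the untreated median, vertical axis) of each array by group, with the replicate number beside each point, the slide given by its shape, and the group mean ± SD in black. The 4 groups overlap, and the highest arrays (3.05 and 2.89) and the lowest (-2.07 and -1.97) belong to the 4-week and regular diet groups.

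The comparisons of the diet groups with untreated mice asked whether the genes differed with CPZ. The difference in mean level after 2 weeks was 0.23 ± 1.65 (SE) for Ttr, 0.54 ± 1.68 for Aqp1 and -0.27 ± 1.11 for Folr1 on the log2 scale. After 4 weeks it was 1.08 ± 1.54 for Ttr, 1.48 ± 1.57 for Aqp1, 1.14 ± 1.20 for Kl and 1.06 ± 1.01 for Slc4a5. On regular diet it was -0.06 ± 1.43 for Ttr, 0.58 ± 1.45 for Aqp1 and 0.65 ± 0.94 for Slc4a5. For these genes, standard errors of 0.94 to 1.68 mean that differences of a few-fold were not detectable with these numbers of arrays.

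All 10 genes, with 12 of their 15 probes, passed the filter on dim probes (every array of 1 or more groups well above background). In the fit of all 4 groups by limma, with Benjamini-Hochberg adjustment over all probes and at least a 2-fold difference, 0 of the 12 probes were called after 2 weeks, against 0.0936% of all probes tested. After 4 weeks it was 0 of 12 against 0.0108%, and on regular diet 0 of 12 against 0.803%. At an unadjusted p under 0.05 limma also gave 0 of the 12 in each comparison, against 9.61, 11.03 and 10.6% of all probes tested after 2 weeks, after 4 weeks and on regular diet. The analysis of variance with Tukey's test named in the methods gave 0 of the 12 as well, against its own 3.26, 3.42 and 3.84% of all probes. Nothing is read from these counts about the members.

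The median difference of the 10 genes was 0.15 after 2 weeks, 0.95 after 4 weeks and 0.14 on regular diet, beside medians of 0.04, -0.03 and -0.02 over all probes tested. Single arrays set these values. Without array 3 of the 4-week group, the 4-week median was 0.13, without untreated array 2 it was 0.11, and without array 2 of the 4-week group it was 0.62. Without array 1 of the 4-week group it was 1.74, and without untreated array 1 it was 1.59. After 2 weeks the median was -0.54 without untreated array 2 and -0.42 without array 1 of the 2-week group, and 0.81 without array 2 of that group. With slide as a fixed block it was -1.28. On regular diet it was -0.53 without untreated array 2, -0.39 without regular diet array 4, and 0.64 without untreated array 1. With the scanner files under the samples they were recorded for, the 3 medians were 1.30, -1.58 and -1.07.

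**Figure D3:**
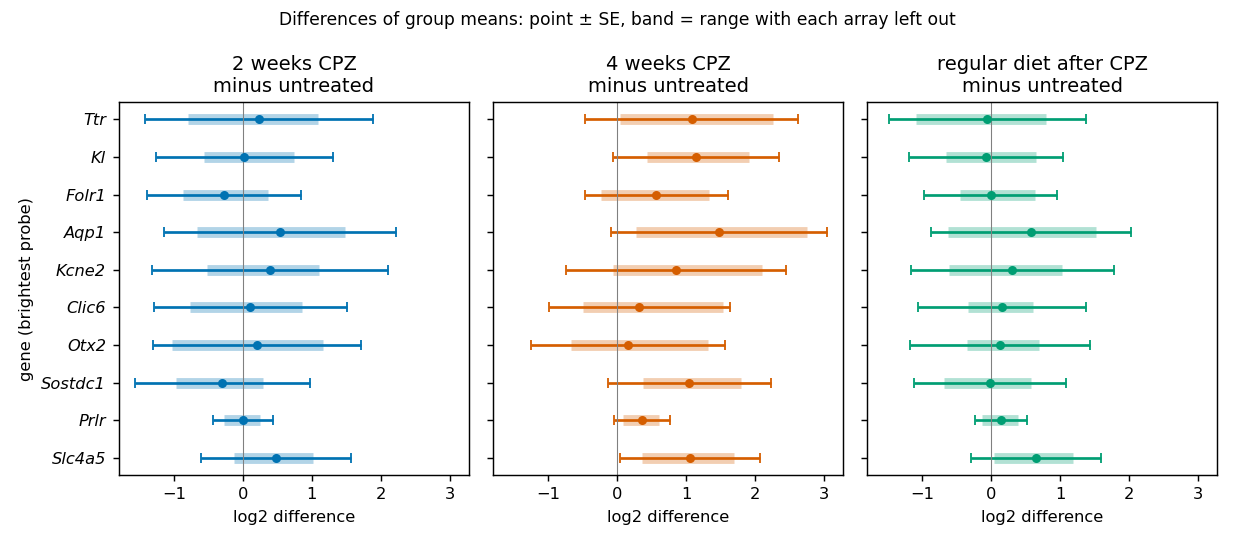
Difference of group means from untreated (log2, horizontal axes) for the brightest probe of each of the 10 genes, as points with ± SE from limma, and as bands the range of the difference when each array in turn is left out. The span of ± 1 SE includes 0 for all genes in the 3 panels other than Slc4a5 after 4 weeks (1.06 ± 1.01).

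Of 39 other choroid plexus genes listed from knowledge of the tissue, with earlier results of these data known, 35 had a probe. Their median level followed the score with r = 0.965 over the 16 arrays (0.936 without the 2 arrays farthest from the median score), from -0.82 on regular diet array 1 to 1.98 on array 3 of the 4-week group. Of the 35 genes, 27 had r above 0.7 and 13 above 0.9, and 21 were highest on array 3 of the 4-week group. Limma called 0 of the 28 genes tested in each comparison by their brightest probe, with 1, 2 and 1 at an unadjusted p under 0.05 after 2 weeks, after 4 weeks and on regular diet, against the 9.61, 11.03 and 10.6% of all probes. Their median differences were 0.05, 0.41 and 0.01. The 4 of highest signal were Enpp2, a secreted lysophospholipase that oligodendrocytes make too (r = 0.809), Ecrg4, a secreted peptide precursor (0.889), Cab39l (0.931) and Igf2, a growth factor (0.911). Others on the list did not follow the score. Igfbp2, an IGF-binding protein, had r = 0.215, and Car14, a carbonic anhydrase, had 0.461. Lmx1a had -0.38 and was well above background on 1 array only.

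The 15 genes most like the score, among 4048 genes well above background on at least 2 arrays and spanning at least 2 log2 units, had Pearson r from 0.929 to 0.979 over 16 arrays. Wdr86 led with r = 0.979, followed by the sugar transporter gene Slc2a12 at 0.972 and F5, which encodes coagulation factor V, at 0.96. The others, in order, were Wfdc2, Prr32, Cldn2 (a tight junction claudin), Tmem72, Cgnl1, Krt18 (a keratin of simple epithelia), Steap1, Smim22, Defb11, Cox8b, Cab39l and Abca4. The level of Wdr86 ran from -2.14 on regular diet array 1 to 2.78 on array 3 of the 4-week group, and that of Wfdc2 reached 3.85 on the latter. Among the 15, Abca4 was well above background on only 4 arrays, Tmem72 on 6, F5 on 9, Cldn2 on 10 and Prr32 on 11, so that many of their values over the 16 arrays are not well above background. Of all 4048 genes, 28 had r above 0.9 (0.692%) and 173 above 0.7 (4.27%), and 18 had r under -0.7. The list of other choroid plexus genes held 13 of the 28. By Spearman's rho, 10 of the 15 genes were again among the 15 highest, and without the 2 arrays farthest from the median score 13 were.

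**Figure D4:**
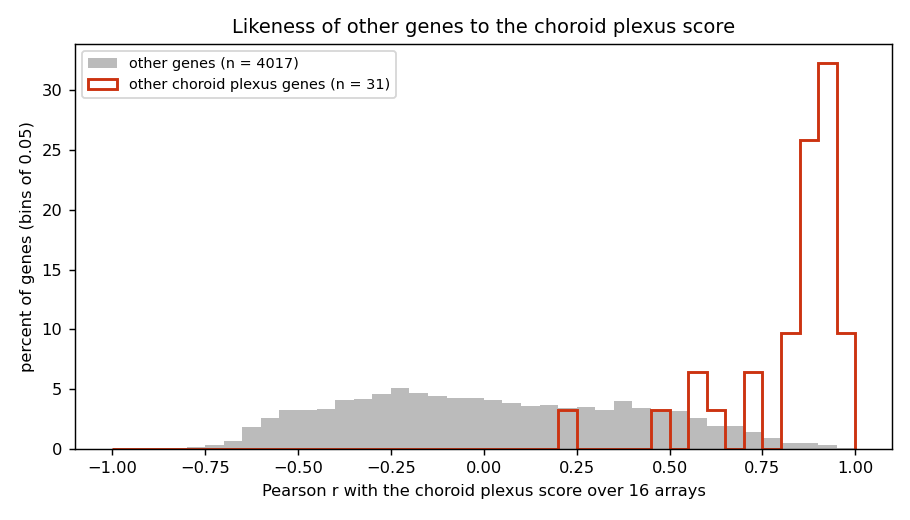
Distribution of Pearson r with the choroid plexus score over 16 arrays (horizontal axis, bins of 0.05; vertical axis, percent of genes) for 31 other choroid plexus genes (red outline) and 4017 other genes (grey) that were well above background on at least 2 arrays and spanned at least 2 log2 units. The red outline lies mostly above 0.7, where 26 of the 31 genes are, and the grey bars centre near 0 with a median of -0.008. The list was chosen with earlier results of these data known.

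Genes for CSF secretion and ion transport, many of them used by other brain cells too, followed the score less closely. Of the 17 genes on the array, Trpv4, Car12 and Car14 are also on the list of other choroid plexus genes. In all, 3 had r above 0.7, namely Trpv4, a cation channel (0.905), Car12, a carbonic anhydrase (0.868), and Atp1b2, a sodium pump subunit (0.728). Their list median ran from -0.93 to 0.09, with r = 0.642. Among those of highest signal, Atp1b1, Kcna1 and Car2 had r of 0.062, -0.032 and 0.503. Of 13 genes that handle thyroid hormone, retinol, folate and vitamin C, Slco1c1, a thyroid hormone transporter gene, had r = 0.735, and the list median had r = 0.668. Stra6, the receptor for retinol-binding protein, had r = -0.587, with its lowest level (-3.39) on array 3 of the 4-week group. Limma called 0 of 16 transport genes tested (3, 2 and 3 at an unadjusted p under 0.05 in the 3 comparisons) and 0 of 12 genes of the second list (1, 3 and 3), against the same 9.61, 11.03 and 10.6% of all probes.

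Markers of cells next to the plexus moved in part with the score. The 14 ependymal genes, of the ciliated lining of the ventricles, had a median level from -1.51 on array 1 of the 4-week group to 0.97 on array 1 of the 2-week group, with r = 0.71. Among them, Foxj1, which drives the making of motile cilia, had r = 0.682, and 4 genes had r above 0.7. Untreated arrays stood at 0.66, 0.00 and -1.44, so the third had a choroid plexus score of 0.00 with an ependymal level near the lowest. Of 14 ependymal genes, 12 were well above background on every array and none was at background on all. Their part in the result was not tested.

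The 11 meningeal and fibroblast genes had r = 0.678, with a median from -1.39 on regular diet array 1 to 1.92 on array 1 of the 2-week group. All 11 were highest on that array, where Dcn, a small matrix proteoglycan, stood at 2.72 and Col1a2, a collagen chain, at 1.40. Array 3 of the 4-week group, highest for the choroid plexus genes, had a meningeal median of 0.03. The array on which Otx2 exceeded its line by 1.63 was thus also the one with the highest meningeal genes, and their part in that value was not tested.

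**Figure D5:**
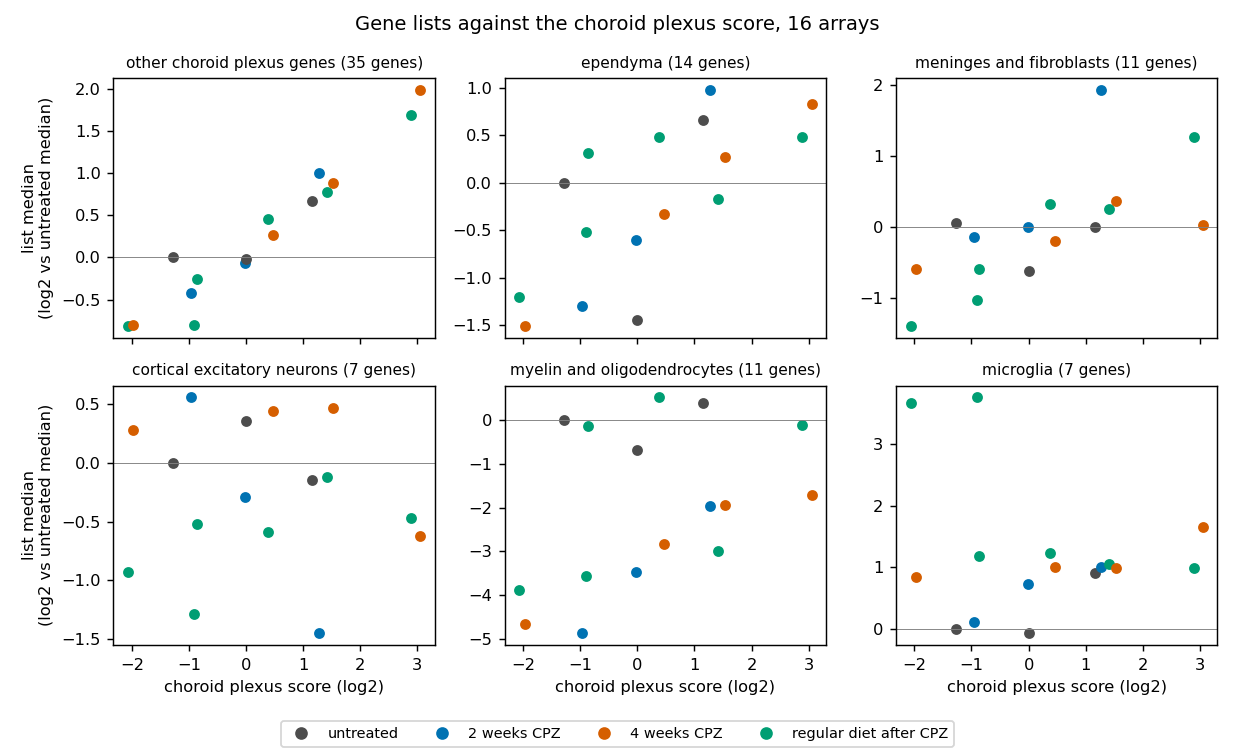
Median log2 level of 6 gene lists (vertical axes, relative to the untreated median) against the choroid plexus score (horizontal axes) for the 16 arrays, coloured by group. The other choroid plexus genes lie near a line (r = 0.965), ependymal and meningeal genes scatter around a rising trend (0.71 and 0.678), and cortical neuron (-0.081) and microglial genes (-0.176) show no such trend.

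Markers of other brain regions, of blood and of the callosum itself were set beside the score in the same way. The r of the list median with the score was -0.081 for 7 cortical excitatory neuron genes, -0.017 for 9 striatal genes, 0.506 for 6 hippocampal genes and 0.539 for 5 thalamic and habenular genes. Without the 2 arrays farthest from the median score these were 0.052, 0.056, 0.611 and 0.296. It was 0.599 for the 3 red blood cell genes, which were highest on array 2 of the 4-week group, and 0.711 without those 2 arrays. The ependymal and meningeal lists gave 0.654 and 0.698 without them, so the order of these lists depends on the 2 arrays. Sspo, the marker of the subcommissural organ, a secretory ependymal gland of the third ventricle, had r = 0.07 and was well above background on 8 arrays. Of the cells of the callosum itself, 11 myelin and oligodendrocyte genes had r = 0.409, 6 astrocyte genes 0.354 and 7 microglial genes -0.176. Without the 2 arrays these were 0.363, 0.188 and -0.289, and the Spearman rho of the microglial genes over all 16 arrays was 0.15. Mbp, a main myelin protein gene, had r = 0.456, and the microglial receptor gene Csf1r had -0.16. The myelin list median ran from -4.88 to 0.52 and the microglial one from -0.07 to 3.76, and 9 of the 11 myelin genes and all 7 microglial genes were well above background on every array. The share of probes well above background had r = -0.243 with the score, and the 75th percentile of the signal had r = 0.175.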

How the data were processed

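The authors deposited spot intensities for each array, as written by Agilent Feature Extraction (11.0.1.1 in the submitters' processing notes), and a table of log2 values. Comparison with the scanner intensities showed that the deposited log2 values are the signal over the array's 75th percentile, minus the untreated median of each probe. The sources do not state this baseline. Each scanner file was matched to a column by correlation (r = 1.0, next best at most 0.881). Groups came from the columns, and background flags from the matched arrays. Probes were named through accessions in a RefSeq table (GRCm38.p6), which matched 27459 of 41153 probes (66.7%). The number of per-sample columns left unused was 0.

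Groups were compared with limma 3.58.1 in R 4.3.3 on the deposited log2 values of all 16 arrays, over the 27779 probes for which all arrays of 1 or more groups were well above background. Probes were called at a Benjamini-Hochberg adjusted p under 0.05 with at least a 2-fold difference, and the fit had 12 residual degrees of freedom. It was tested on simulated data. A range is given as at least a fold where the probe was not well above background on its lowest array, computed against that array's dimmest signal well above background, or the probe's own signal where that was higher. Named genes are the 10 members, the 15 genes most like the score, and per list up to 4 of highest signal. Results for some genes that the rule selects are not reported here. Genes named for a departure from their list, or as examples beyond those 4, were chosen after their values were seen. The members, lists and motif were chosen with earlier results of these data known. Normexp used the median spot signal, since the mean signal it was planned for was not used here. Other alternatives were quantile and median scaling, scanner signals, other filters on dim probes, slide and replicate blocks, single arrays left out, fits of 2 groups, and the analysis of variance with Tukey's test of the methods. Precision is limited by the number of arrays.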

Additional observations from a re-analysis of the deposited data

How the results depend on the processing

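In all fits run, 0 probes of the 10 genes were called. The number of probes called over the whole array depended on the setting, and the cause was not tested. After 2 weeks of CPZ it was 26, against 6 with quantile normalization, 4 with median scaling, 3 with normexp, 0 under the recorded samples, 11 with the filter on all arrays, 42 with slide as a fixed block, 66 with slide as a random block and 0 in a fit of the 2 groups. After 4 weeks it was 3, against 9 with median scaling, 0 with normexp, 0 under the recorded samples, 61 and 25 with slide as a fixed and a random block, 10 with Tukey's test and 207 in a fit of the 2 groups. On regular diet it was 223, against 128 with median scaling, 41 with normexp, 0 under the recorded samples, 115 with the filter on all arrays and 12 with Tukey's test, while slide as a fixed and a random block gave 266 and 328. Where a count was 0, limma gave 298 (recorded samples) and 2727 (2 groups) probes at an unadjusted p under 0.05 after 2 weeks, 2349 (normexp) and 817 (recorded samples) after 4 weeks, and 2894 (recorded samples) on regular diet. The limma fit reported gave 2670, 3064 and 2944 of 27779 probes at that threshold. Under the recorded samples 26928 probes were tested.

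With single arrays left out, the counts ran from 0 (without array 1 of the 2-week group) to 79 (without array 2 of that group) after 2 weeks, from 1 to 289 (without untreated array 1) after 4 weeks, and from 5 (without untreated array 3) to 240 on regular diet. The median difference of the 10 genes ran from -0.54 to 0.81, from 0.11 to 1.74 and from -0.53 to 0.64. It moved by more than the spread between arrays to -1.28 after 2 weeks with slide as a fixed block, and to -1.58 after 4 weeks under the recorded samples. Of 828 differences of single genes under the alternatives, 22 moved by more than that spread, 15 of them under the recorded samples and 7 with slide as a fixed block, and 120 had another sign than in the fit reported.

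With the replicate number as a block, 0, 0 and 24 probes were called, with median differences of 0.15, 0.47 and -0.11 for the 10 genes. Of 19 pairs of arrays with the same number, 5 had deviations correlated above 0.1 (range -0.80 to 0.34). Among pairs from different groups with different numbers it was 24 of 74 (range -0.84 to 0.78). By this count, arrays with the same number were no more alike than others.

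The range of the score was 5.12, and 4.89 without Ttr, 4.71 as the median over all probes and 5.19 after quantile normalization. Under these 3 settings 16, 11 and 14 of the 16 arrays kept their rank. The share of its variance between groups was 4.02%, and 46.8% under the recorded samples, an alternative added after the data were seen.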
